A study of Macaca mulatta with 4 samples.

Results

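The sites described here are places in the interior of the macaque chromosomes where a HIF-1α peak was called both early and late after a heart attack. They were found by chromatin immunoprecipitation and sequencing (ChIP-seq), which recovers DNA bound by a protein with an antibody and calls a peak where reads pile up over input chromatin. Members were peaks of either list on chromosomes 1 to 20, without chromosomes 16, 19 and 20, that overlapped a peak of the other list by at least 1 bp. Their midpoints also lay 2 Mb or more from both chromosome ends, where 0 and the largest peak end of either list stood for the ends. The members were thus chosen by the positions of the called peaks, and their overlap is a description and not a finding. The rule found 532 peaks in the list of 6 h and 532 in the list of 4 weeks, or 1064 of the 20750 peaks in both lists. They formed 537 overlapping pairs at 527 separate sites.

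The samples came from infarcted heart of male rhesus macaques after the left anterior descending coronary artery had been tied off, with tissue taken after 6 h or 4 weeks. Each time has 1 HIF-1α ChIP library and 1 input library without antibody, and all 4 samples carry the infarct, so no uninjured heart is compared. Age, number of animals and any pooling are not stated in the labels. The lists hold 13351 peaks at 6 h and 7399 at 4 weeks as positions only, so read depth and peak height are unknown. With 1 ChIP library per time there is no replicate spread, no test between times and no p-value; intervals are exact 95% intervals that cover counting error only and treat peaks or pairs as independent. In bulk tissue a weaker peak from fewer cells of a type cannot be told apart from less binding per cell.

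HIF-1 is a pair of proteins, HIF-1α and HIF-1β, that binds DNA at short hypoxia response elements. With enough oxygen HIF-1α is hydroxylated and degraded; when oxygen is short it accumulates and turns on genes for glycolysis and for blood vessel growth, VEGFA among them. The series asks how copper bears on HIF-1 activity, and copper is known to be needed for HIF-1 to act on some of its target genes. Genes and sequence motifs at the sites were not analysed here, because no label or file header names the genome build of the positions.

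In the same chromosome interiors, 7.92% of the 6721 peaks at 6 h and 16.8% of the 3159 peaks at 4 weeks were members. These shares restate the rule. Most sites were simple: 518 consisted of 1 peak from each time, and 9 held more. The 2 peaks of a pair shared a median of 204 bp (interval 199 to 212 bp), with quartiles of 153 and 275 bp. Summed over pairs the shared sequence was 117 kb, while member peaks covered 199 kb at 6 h and 188 kb at 4 weeks.

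At these sites the early and late peaks had nearly the same typical width but did not have matching widths pair by pair. In the 537 pairs the median width was 323 bp at 6 h (interval 306 to 338 bp) and 318 bp at 4 weeks (304 to 336 bp). The 6 h peak was the wider one in 293 pairs, or 54.6% (50.2 to 58.8%), the 4-week peak in 240, and 4 pairs had equal widths. The median difference, 6 h minus 4 weeks, was 14 bp (2 to 32 bp). With chromosome 1 left out it was 12 bp with an interval of -2 to 30 bp, and the wider share at 6 h was 53.2% (48.5 to 57.8%). These intervals take in equal widths and an even split, while those over all pairs do not. With 1 ChIP library per time, the small excess of wide 6 h peaks is not read as a difference between times. The differences within pairs were much larger than the median of 14 bp. Their median size was 124 bp regardless of sign, with quartiles of 50 and 227 bp.

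A wide peak at one time said little about the width at the other. Among the 135 pairs with the widest 6 h peaks (458 to 1713 bp), the 4-week partner had a median of 346 bp. Among the 133 pairs with the narrowest 6 h peaks (199 to 243 bp), the partner's median was 323 bp. Read the other way, the 6 h partner had a median of 380 bp for the widest 25% of 4-week peaks and 310 bp for the narrowest 25%. The widest 25% at both times had 47 pairs in common, against 29 in which the narrowest 25% met. The 47 were the largest count for any combination of 25% parts, and the other combinations held 25 to 40 pairs. Across pairs the widths had a Spearman rho of 0.10; pairs share their libraries and local sequence, so this is a description. In 60 pairs the 6 h peak was at least 2 times as wide as its partner, and in 45 pairs the 4-week peak was.

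**Figure D1:**
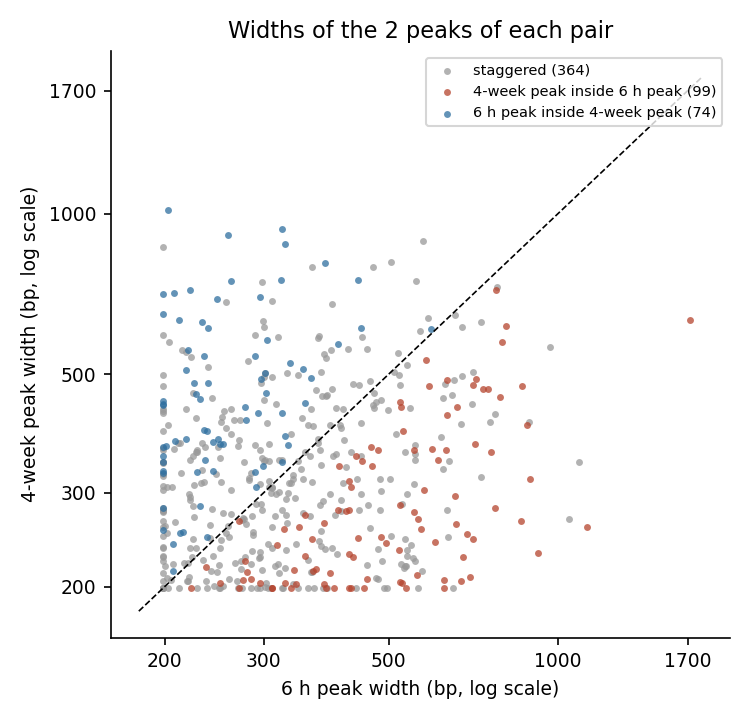
Width of the 4-week peak against width of the 6 h peak for the 537 pairs, both in bp on log axes; each point is a pair, coloured by how the 2 peaks lie, and the dashed line marks equal widths. Points fill the plane on both sides of the line, and points along the left and lower edges are peaks at the narrowest width of 199 bp.

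Compared with the other peaks of the same chromosome interiors, members were wider at both times. At 6 h the median was 321 bp for the 532 members and 248 bp for the 6189 others, and at 4 weeks it was 317.5 bp for members and 252 bp for the 2627 others. Peaks of 500 bp or more made up 20.1% of members at 6 h (16.8 to 23.8%) and 5.38% of the others (4.83 to 5.97%), and 13.9% (11.1 to 17.1%) against 4.61% (3.84 to 5.48%) at 4 weeks. A wide peak has more room to overlap another, so part of this follows from the rule and no test was made. The narrowest width in the lists, 199 bp, was found in 47 members at 6 h (8.83%, against 24.6% of the others) and in 41 at 4 weeks (7.71%, against 19.6%). From the narrowest to the widest 25% of peaks, the part called at both times went from 2.97% to 14.8% at 6 h and from 8.99% to 30.3% at 4 weeks.

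The widest sites at both times are named first, ordered by the sum of their width ranks. On chromosome 1 a 6 h peak at 130256360 to 130258072 (1713 bp), the widest 6 h member, enclosed a 4-week peak at 130256719 to 130257350 (632 bp). On chromosome 6 the peaks lay at 56448862 to 56449639 (778 bp) at 6 h and 56448848 to 56449577 (730 bp) at 4 weeks, sharing 716 bp. Another site on chromosome 1 was 776 bp wide at 6 h (136166802 to 136167577) and held a 4-week peak of 719 bp (136166845 to 136167563). These 3 sites differ in how well the times match: at the first the 6 h peak was 2.71 times as wide, and at the other 2 it was 1.07 and 1.08 times as wide. On chromosome 7 the 6 h peak at 165919787 to 165920594 (808 bp) enclosed a 4-week peak of 615 bp (165919850 to 165920464). On chromosome 2 the peaks at 182481741 to 182482469 (6 h, 729 bp) and 182481638 to 182482263 (4 weeks, 626 bp) shared 523 bp. The remaining 5 of the 10 were 2 neighbours on chromosome 1 near 204831067, taken up with the groups of sites, and 3 pairs that overlapped by less than 60% of their narrower peak, described with the offsets or next. One of these lay on chromosome 6, where a 6 h peak of 576 bp (57931637 to 57932212) met a 4-week peak of 889 bp (57931074 to 57931962) over 326 bp. Another lay on chromosome 7, where an early peak of 676 bp (53278140 to 53278815) shared 362 bp with a late peak of 612 bp (53278454 to 53279065).

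The longest overlaps among the pairs not yet named ran from near-identical to staggered. On chromosome 5 the 6 h peak at 169529340 to 169529933 (594 bp) lay wholly inside the 4-week peak at 169529329 to 169529936 (608 bp). On chromosome 4 a 4-week peak of 532 bp (153951241 to 153951772) lay inside a 6 h peak of 584 bp (153951230 to 153951813). On chromosome 3 an early peak of 587 bp (68700078 to 68700664) had 505 bp in common with a late peak of 637 bp (68700160 to 68700796). On chromosomes 13 and 9, 4-week peaks of 489 bp (72120024 to 72120512) and 487 bp (38859115 to 38859601) were enclosed by 6 h peaks of 716 bp (72120002 to 72120717) and 636 bp (38859113 to 38859748). At both, the lower edges lay close together, 22 and 2 bp apart, and the 6 h peak reached farther at the upper edge.

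At other sites the 2 times differed strongly in width. The largest ratio in favour of 6 h was on chromosome 17, where a peak of 1128 bp (2380196 to 2381323) enclosed a 4-week peak of 259 bp (2380888 to 2381146), a ratio of 4.36. On chromosome 9 a 6 h peak of 923 bp (15206775 to 15207697) enclosed 231 bp at 4 weeks (15207351 to 15207581), a ratio of 3.996. On chromosome 6 a 6 h peak of 1045 bp (125737157 to 125738201) met a 4-week peak of 268 bp (125738019 to 125738286) near its upper edge only. The next ratios were 3.33 on chromosome 13 (697 bp at 75439243 to 75439939 against 209 bp) and 3.28 on chromosome 14 (673 bp at 57796409 to 57797081 against 205 bp). In bp the largest difference was the 1081 bp of the site at 130256360 on chromosome 1. Ratios in favour of 4 weeks reached similar size. On chromosome 7 the widest 4-week member, 1014 bp at 139454837 to 139455850, enclosed a 6 h peak of 203 bp (139455398 to 139455600), and here the 4-week peak was 4.995 times as wide. On chromosome 1 a 4-week peak of 867 bp (115550347 to 115551213) shared only 52 bp with a 6 h peak of 199 bp (115550200 to 115550398). The other 3 were 4-week peaks of 706 bp on chromosome 15 (8639237 to 8639942), 913 bp on chromosome 7 (26700329 to 26701241) and 709 bp on chromosome 3 (103375674 to 103376382), which enclosed 6 h peaks of 199, 259 and 208 bp. Without peak heights, a narrow call inside a wide one cannot be read as weaker binding.

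The early and late peaks of a pair were usually shifted against each other. In 364 pairs, or 67.8% (63.6 to 71.7%), the peaks were staggered, each reaching past the other at one edge. In 99 pairs the 4-week peak lay inside the 6 h peak, and in 74 the reverse held. The distance between midpoints had a median of 107 bp (96.5 to 115.5 bp) and quartiles of 45 and 188 bp, and it was at most 50 bp in 141 pairs (26.3%, 22.6 to 30.2%) and over 200 bp in 124 (23.1%, 19.6 to 26.9%). The shift had no preferred side along the chromosome, with the 4-week midpoint at the higher coordinate in 272 pairs, at the lower in 264 and at the same place in 1. Overlap covered a median of 87.6% of the narrower peak but only 47.4% of the sequence under either peak. In 280 pairs (52.1%, 47.8 to 56.4%) at least 50% of each peak was shared.

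The edges were seldom the same. The lower edges of a pair were a median of 108 bp apart and the upper edges 111 bp. At least one edge matched within 10 bp in 81 pairs (15.1%, 12.2 to 18.4%), while 51 pairs (9.50%, 7.15 to 12.3%) had both edges within 50 bp. Starts were identical in 2 pairs and ends in 5. The first of these in genome order was on chromosome 1, with 2874806 to 2875043 at 6 h and 2874796 to 2875043 at 4 weeks. Also on chromosome 1, peaks of 394 and 212 bp shared the start 20823527, and peaks of 223 and 199 bp shared the end 200754148. On chromosome 2 peaks of 231 and 283 bp both ended at 49841490, and on chromosome 11 peaks of 407 and 279 bp both started at 12282276. The best match over both edges, picked after its values were seen, was on chromosome 14, with 6415732 to 6416002 (271 bp) at 6 h and 6415736 to 6416000 (265 bp) at 4 weeks.

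Midpoints of a pair lay up to 549.5 bp apart. On chromosome 5 a 6 h peak at 86363660 to 86364165 and a 4-week peak at 86364057 to 86364867 had midpoints 549.5 bp apart and shared 109 bp. On chromosome 9 peaks at 22616759 to 22617277 (6 h) and 22617265 to 22617812 (4 weeks) shared 13 bp, with midpoints 520.5 bp apart. On chromosome 2 peaks of 656 bp (6352173 to 6352828, 6 h) and 646 bp (6351688 to 6352333, 4 weeks) ranked among the 10 widest pairs, yet their midpoints were 490 bp apart. The pairs already named at 115550200 on chromosome 1 (481 bp) and 125737157 on chromosome 6 (473.5 bp) followed. Since a larger offset would end an overlap, each was set against the largest the widths of the pair allow. The offset was up to 25% of that limit in 225 pairs, from 25 to 50% in 146, from 50 to 75% in 109 and beyond 75% in 57. The closest class was the most frequent of the 4, with 41.9% of pairs (37.7 to 46.2%).

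The overlap rule cut through a continuous series of distances. The shortest overlaps inside it were 4 bp on chromosome 7 (112678517 to 112678715 at 6 h, 112678712 to 112678939 at 4 weeks), 5 bp on chromosome 9 near 109581451 and 8 bp on chromosome 1 near 145427465. Just outside lay peaks with 1 bp between them on chromosome 14 (6 h peak ending at 95351289, 4-week peak starting at 95351291) and on chromosome 2 (150264388 and 150264390), and with 2 bp on chromosome 11 (4-week peak ending at 56672669, 6 h peak starting at 56672672). In the chromosome interiors 52 pairs of peaks failed to overlap by a gap of under 100 bp. At the border of 2 Mb, the nearest pair outside lay 1.97 Mb from the end of chromosome 5 and the nearest inside 2.11 Mb from its other end.

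Beyond the members, a minority of early and late peaks lay close without touching. For the 2627 other peaks at 4 weeks the nearest 6 h midpoint was a median of 96.5 kb away. For the 6189 others at 6 h the nearest 4-week midpoint was a median of 179 kb away. Of all 4-week peaks, members included, 724 (22.9%, 21.5 to 24.4%) had the midpoint of a 6 h peak within 1 kb, and 192 of these did not overlap one. Of all 6 h peaks, 772 (11.5%, 10.7 to 12.3%) had a 4-week midpoint within 1 kb, 240 without overlap. By distance the numbers fell for 4-week peaks: 255 had their nearest 6 h midpoint within 100 bp, 158 between 100 and 200 bp, 92 between 200 and 300 bp and 18 between 900 and 1000 bp. Farther out, 75 peaks lay between 1 and 2 kb and 76 between 5 and 10 kb, or 15.2 per kb of distance. For 168 of the 192 at 4 weeks and 174 of the 240 at 6 h, the nearest peak of the other list was itself no member. It was a member for 12.5% at 4 weeks (8.18 to 18.0%), while 7.92% of all 6 h peaks were members. At 6 h it was a member for 27.5% (22.0 to 33.6%), while 16.8% of all 4-week peaks were members. The shares of all peaks are not a matched baseline. They include the 58.9% of 6 h peaks and 40.7% of 4-week peaks with no midpoint of the other list within 100 kb. The peaks within 1 kb that did not overlap had median widths of 272 bp (interval 253 to 291 bp) in the 4-week list and 252 bp (interval 237 to 267 bp) in the 6 h list. Both were under those of the members, which follows in part from the rule, since a narrow peak overlaps less easily. Peaks with no midpoint of the other list within 1 kb had medians of 251 bp (245 to 255 bp) at 4 weeks. At 6 h their median was 248 bp (245 to 251 bp).

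**Figure D2:**
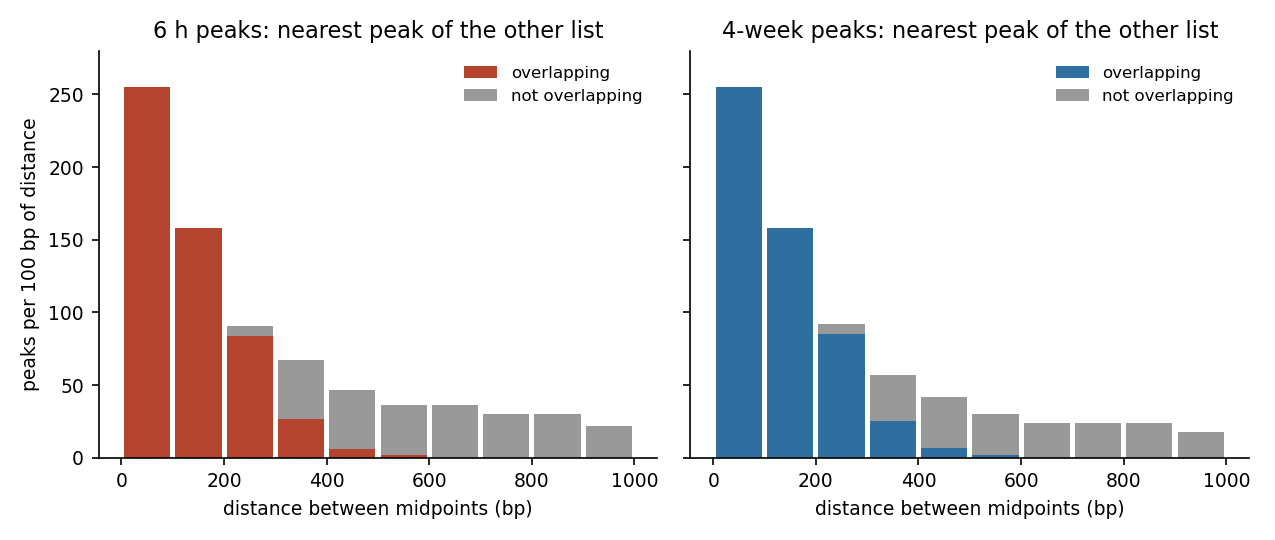
Number of peaks in the chromosome interiors by the distance from their midpoint to the nearest midpoint in the other list, in bins of 100 bp, for the 6 h list (left) and the 4-week list (right). Coloured bars are members, which overlap a peak of the other list, and grey bars are peaks that do not; the first bin holds 255 peaks at each time and the numbers fall with distance.

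Some sites held more than a pair. In all, 5 peaks at 6 h overlapped 2 peaks of the 4-week list each, and 5 peaks at 4 weeks overlapped 2 peaks of the 6 h list each. On chromosome 3 the 4-week peak at 175704942 to 175705734 (793 bp) bridged 6 h peaks at 175704761 to 175705125 and 175705444 to 175705912. Bridging 4-week peaks were also found on chromosome 7 (114603021 to 114603295), chromosome 9 (121911328 to 121911885) and chromosome 12 (38878586 to 38879015). The reverse was seen on chromosome 3, where the 6 h peak at 54675014 to 54675571 (558 bp) overlapped 4-week peaks of 223 and 354 bp. It was likewise seen on chromosome 12 (36119439 to 36119761) and on chromosome 14 (57796409 to 57797081 and 112205333 to 112205778). On chromosome 9 the peaks formed a chain of 4, in which the 6 h peaks at 91504264 to 91504481 and 91504712 to 91505075 alternated with 4-week peaks at 91504354 to 91504783 and 91505027 to 91505239. The 9 sites of this kind spanned 696 to 1152 bp each.

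Sites lay far apart along most of the chromosomes. The gap to the next site on the same chromosome had a median of 2.27 Mb and quartiles of 0.653 and 5.48 Mb, and 12 of 510 gaps were within 10 kb. Joining sites with gaps of at most 50 kb left 486 single sites, 15 groups of 2, 2 groups of 3 and 1 of 5. The group of 5 spanned 10.7 kb on chromosome 1 (204830100 to 204840800), where each time had 5 peaks and all were members. Its first sites were wide at both times, with 795 bp at 6 h and 576 bp at 4 weeks (start 204830100 at 6 h), then 968 and 563 bp (start 204831067 at 6 h). Both groups of 3 lay on chromosome 17, inside runs of dense 6 h peaks. The first (9005549 to 9052312) held 15 early and 3 late peaks, the second (2341482 to 2409233) 31 and 4. The tightest groups of 2 were on chromosome 12 (82954390 to 82955382) and chromosome 1 (184349500 to 184350904), each with 2 peaks at both times.

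Peaks of a single time also lay around the sites. Of the 527 sites, 158 (30.0%, 26.1 to 34.1%) had a peak that was no member within 10 kb, 125 from the 6 h list and 43 from the 4-week list. A further peak of the same list within 10 kb was found for 26.5% of 6 h members (22.8 to 30.5%) and for 21.4% of the other 6 h peaks (20.4 to 22.5%). Within 5 kb the 6 h shares were 23.1% (19.6 to 26.9%) and 17.5% (16.5 to 18.4%). Within 20 kb they were 31.02% (27.1 to 35.1%) and 28.3% (27.1 to 29.4%), and there the intervals overlapped. At 4 weeks the shares within 10 kb were 13.9% (11.1 to 17.1%) and 9.44% (8.35 to 10.6%). Within 20 kb the 4-week intervals also overlapped, at 16.7% (13.66 to 20.2%) and 12.5% (11.2 to 13.81%), so this excess depended on the window too. Dense stretches offer more peaks to overlap, and the part of this in the higher shares was not tested.

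Among the chromosomes, chromosome 1 stood out with 80 sites. Its members made up 22.8% of its 351 4-week peaks (18.5 to 27.5%) and 10.4% of its 771 6 h peaks (8.31 to 12.7%), and both intervals lie above the shares over all 17 chromosomes. Chromosome 11 was lowest, with 19 of 161 4-week peaks (11.8%, 7.26 to 17.8%) and 19 of 373 6 h peaks (5.09%, 3.09 to 7.84%). Its interval lies below the overall share at 6 h but includes it at 4 weeks. No other chromosome had an interval that missed the overall share at either time; 17 were examined at each time without adjustment. With isolated peaks only, which removes the group of 5, chromosome 1 had 16.99% (12.99 to 21.6%) against 12.5% over all chromosomes. Sites per Mb ran from 0.12 on chromosomes 18 and 5 to 0.36 on chromosome 1. The median midpoint offset ran from 70.25 bp on chromosome 8 to 164.75 bp on chromosome 18, which had 8 pairs. The 6 h peak was the wider one in most pairs on 9 chromosomes, the 4-week peak on 4, and 4 were even.

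**Figure D3:**
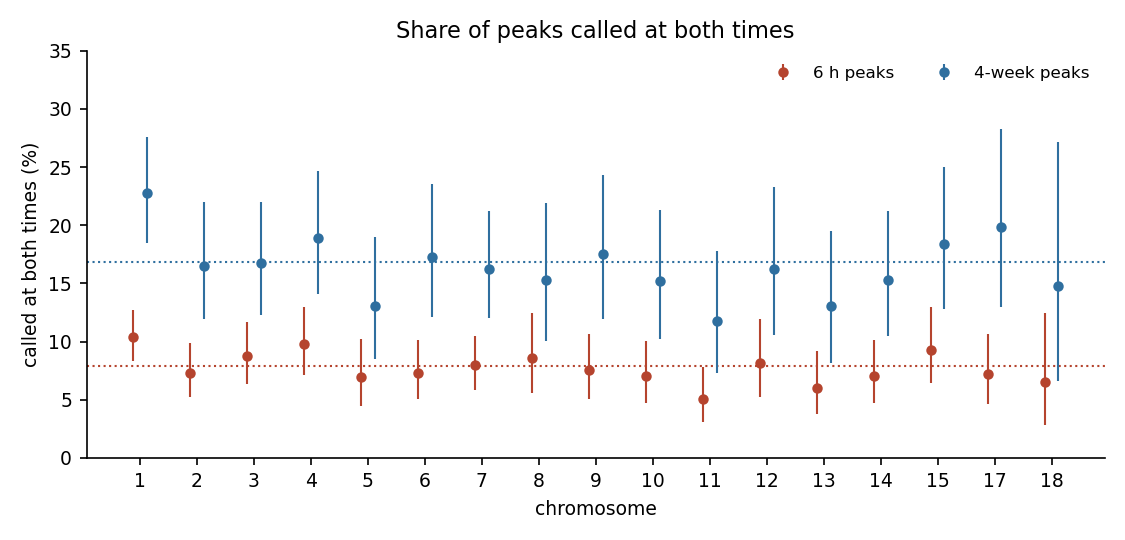
Percent of peaks in the interior of each chromosome that were called at both times, for 6 h peaks (red) and 4-week peaks (blue), with exact 95% intervals for counting error. Dotted lines mark 7.92% and 16.8% over all 17 chromosomes; chromosome 1 lies above both and chromosome 11 is lowest at both times.

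Pairs elsewhere in the genome were compared to see what is shared by all overlapping pairs. The 186 pairs on the remaining chromosomes and chromosome ends resembled the members, with a median midpoint offset of 103.75 bp (85.5 to 133 bp), a 6 h peak that was wider in 51.1% (43.7 to 58.5%) and a width rho of 0.09. The 520 pairs on scaffolds not placed on a chromosome were aligned more closely. Their median offset was 46.75 bp (40 to 52.5 bp) and both edges lay within 50 bp in 25.2% (21.5 to 29.2%), against 9.50% of the members. On scaffolds the 6 h peak was wider in 71.0% (66.9 to 74.8%), 43.5% of pairs had the 4-week peak inside the 6 h peak against 18.4% of the members, and the width rho was 0.42 against 0.10. The intervals of the scaffold pairs and the members do not meet for offset, edges or the wider share. They cover counting error only, and whether another pair of libraries would show the same was not tested. Scaffolds can also be short, and the part of this in the closer alignment was not tested.

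**Figure D4:**
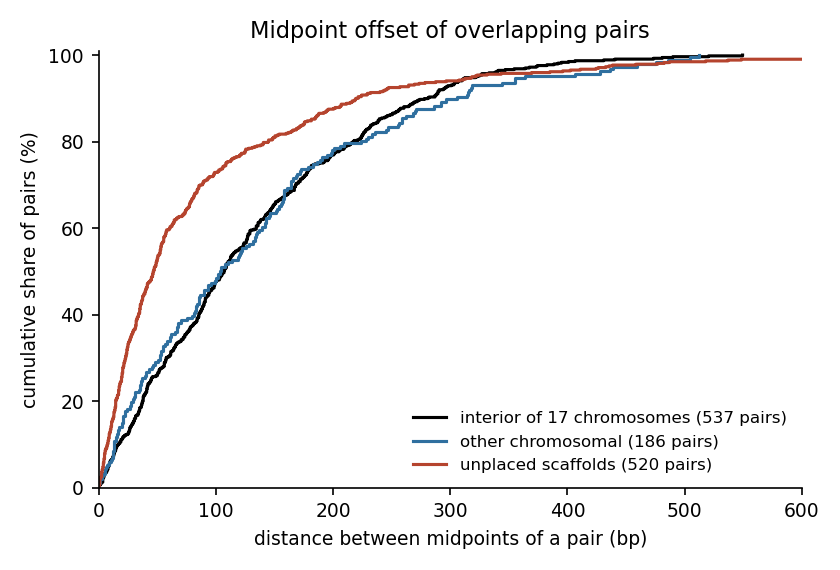
Cumulative percent of overlapping pairs by the distance between their midpoints in bp, for the 537 pairs of the chromosome interiors (black), 186 other chromosomal pairs (blue) and 520 pairs on unplaced scaffolds (red). The black and blue curves run together and the red curve rises faster; the axis ends at 600 bp, and the largest scaffold offset was 1830.5 bp.

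Membership also went with the order of rows in the deposited lists, which the rule did not use. The rows are not in genome order throughout: the 6 h list consists of 1083 runs in sequence order and the 4-week list of 452. The 10 longest runs held 45.6% of the 6 h rows and 58.3% of the 4-week rows, and within a run row position only follows sequence order. No label or header says what orders the runs, so row position is not read as strength. Among 6 h peaks of the chromosome interiors, 13.1% of the first 25% of rows were members (11.5 to 14.8%), then 8.21%, 6.37% and 3.99% (3.10 to 5.04%) in the last 25%. Among 4-week peaks the shares were 28.0% (24.9 to 31.2%), 16.8%, 10.3% and 12.3% (10.1 to 14.8%). Median widths in these 4 parts were close to one another, 262, 242, 248 and 260 bp at 6 h and 277, 255, 246 and 262 bp at 4 weeks. The fall was present among wide and narrow peaks alike. Of 4-week peaks above the median width, 34.4% (29.9 to 39.1%) were members in the first 25% of rows and 16.1% (12.6 to 20.04%) in the last 25%, and of the narrower ones 20.2% (16.1 to 24.7%) and 8.31% (5.75 to 11.5%). Within pairs, row positions in the 2 lists had a Spearman rho of 0.11, so a site early in one list was not regularly early in the other.

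**Figure D5:**
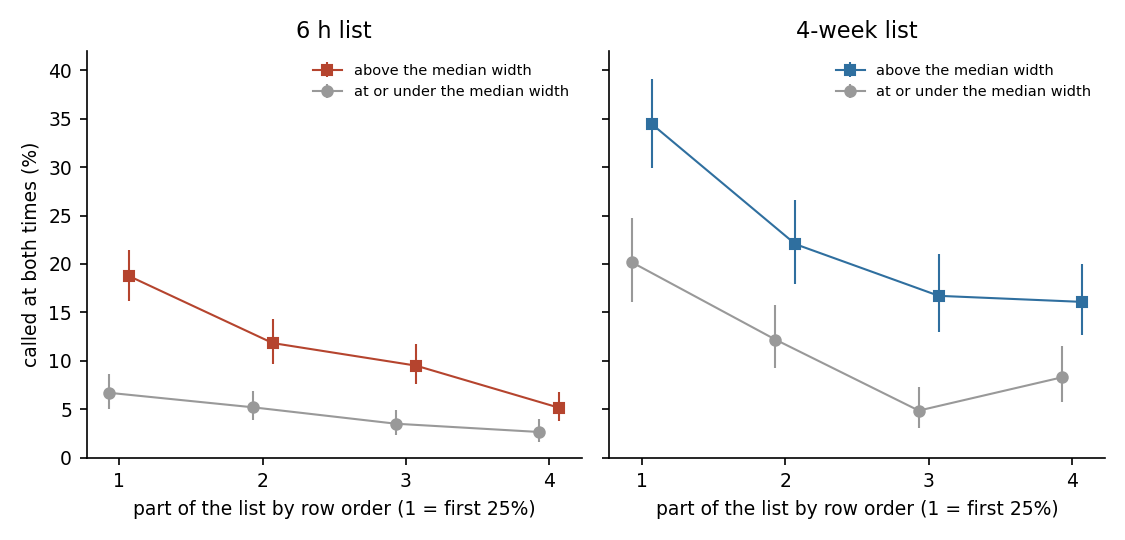
Percent of peaks called at both times in 4 successive parts of the list in row order, each 25% of its peaks, for the 6 h list (left) and the 4-week list (right), with peaks above the median width as squares and the others as circles; bars are exact 95% intervals for counting error. Shares are highest in the first part in all 4 series, and wide peaks lie above narrow ones in each part.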

How the data were processed

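ChIP libraries against HIF-1α and input libraries from infarcted macaque heart were grouped by time and antibody as labelled. Per the submitters' processing notes, the authors used Bowtie2 2.0 and MACS2; no label gives settings or genome build. The deposited lists hold 3 columns (sequence name, start, end) with no header, and per the file names each sets a ChIP library against its input. Starts were read as counted from 0, as in BED files, and printed as counted from 1; if the authors counted from 1, each start is printed 1 bp too high and each peak is 1 bp wider. All overlaps of at least 1 bp were paired with Python 3.11.15, numpy 2.4.6 and pandas 2.3.3. Shares have Clopper-Pearson intervals (scipy 1.17.1) and medians intervals from binomial order statistics; figures used matplotlib 3.10.9. On simulated lists of 2000 and 1000 peaks, 200 of 200 planted pairs were recovered. The planted offsets were small and the peaks otherwise far apart, so large offsets, short overlaps and several partners were not tried. Members, lists and comparisons were chosen with earlier results of these data known. Pairs were named by fixed ranks: width in both lists, overlap, width ratio, offset, shared edges, several partners, grouping and nearness to the thresholds. Row order, pairs elsewhere and distances to the nearest peak were added after the data were seen. Alternatives were other overlaps, end distances and windows, simple, wider or isolated pairs, starts counted from 1, and chromosome 1 left out. Motif and gene analyses were not run for lack of a named build.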

Additional observations from a re-analysis of the deposited data

How the results depend on the processing

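Of 128 alternative values of the 14 main quantities, 104 stayed within the reported interval (counts: within 1.5 times) and 24 moved. Only the width difference and the share of pairs with the wider peak at 6 h have a direction, and neither changed it. No value moved with 1 Mb or 5 Mb from the ends or with pairs of 1 peak each, nor with starts counted from 1 or chromosome 1 left out, both added after the data were seen. A reciprocal overlap of 50% left 280 peaks in each list and 280 pairs, with a median offset of 51.75 bp, 41.4% nested, 97.9% of the narrower peak covered, 4.17% of 6 h and 8.86% of 4-week peaks as members and a median gap of 4.11 Mb. An overlap of at least 100 bp gave 91 bp, 37.0%, 93.9%, 6.93%, 14.8% and 2.65 Mb for the same quantities; both settings favour aligned pairs by construction. With both peaks above the narrowest width, 8.69% of 6 h peaks were members and the gap was 2.69 Mb. Isolated peaks gave 355 pairs, 6.76% and 12.5% members, a gap of 3.51 Mb and, by construction, 0% of sites with another peak nearby (an upper bound of 1.03%). That share was 25.2% within 5 kb and 35.7% within 20 kb. The width difference between times had an interval that included 0 with isolated peaks (10 bp, -2 to 32 bp), a reciprocal overlap of 50% (11 bp, -2 to 30 bp), an overlap of at least 100 bp (15 bp, 0 to 37 bp) and chromosome 1 left out (12 bp, -2 to 30 bp); the share of pairs with the wider peak at 6 h included 50% under the same 4 settings. For single chromosomes, 21 of 152 alternative shares moved. Alternatives for motifs and genes were left out for lack of a named build. No paired analysis was possible because there is a single ChIP library at each time. Depth is unknown, so sites missed at one time for lack of reads cannot be counted.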

Other observations

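Within the chromosome interiors the part of peaks called at both times showed no steady course with distance from the end. At 4 weeks it was 16.4% (interval 11.7 to 22.1%) from 2 to 5 Mb, 20.7% (16.0035 to 25.98%) from 5 to 10 Mb, 13.1% (10.1 to 16.5%) from 10 to 20 Mb, 17.8% (15.7 to 19.96%) from 20 to 50 Mb and 16.4% (14.1 to 18.9%) beyond. Of these, only the interval from 10 to 20 Mb missed the 16.8% of all, and it lay below. At 6 h the shares ran from 6.47% (4.96 to 8.27%) between 10 and 20 Mb to 8.58% (7.55 to 9.71%) between 20 and 50 Mb. The longest stretch without a site was 49.1 Mb on chromosome 17, between 31789710 and 80908766. It was not empty of peaks, since 52 peaks at 6 h and 41 at 4 weeks lay in it. That none of them overlapped follows from the choice of the stretch. The whole interior of chromosome 17 held 318 peaks at 6 h and 116 at 4 weeks, or 3.47 and 1.27 per Mb. The stretch held fewer per Mb at both times. Over that interior 7.23% of 6 h peaks and 19.8% of 4-week peaks were members.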
